A study of Mus musculus with 4 samples.

Results

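The tumor necrosis factor (TNF) superfamily supplies much of the costimulation that T cells receive after antigen recognition. The 10 genes described here were chosen by symbol, as costimulatory members of that family, from the 32285 genes listed in both count matrices, and each symbol matched 1 row. They comprise 5 receptors, Tnfrsf4 (OX40), Tnfrsf9 (4-1BB), Tnfrsf18 (GITR), Tnfrsf1b (TNFR2) and Cd27, and 5 ligands, Tnfsf4 (OX40L), Tnfsf8 (CD30L), Tnfsf11 (RANKL), Tnfsf14 (LIGHT) and Cd40lg (CD40L). Receptors of this family carry no enzyme of their own and signal through TRAF adaptor proteins to NF-kB and MAP kinases, and their ligands are mostly trimers on the surface of neighboring cells. OX40 and 4-1BB are known as receptors that T cells put on after activation, GITR and TNFR2 are known for high levels on regulatory T cells, and CD27 is already present on naive T cells. CD40L is known as the signal by which activated CD4+ T cells license dendritic cells and B cells through CD40.

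The tumor-infiltrating lymphocytes (TILs) came from tumors of B16bl6, a mouse melanoma line, in Vsir fl/fl hosts. In the group labelled VISTA-KO, CD4-Cre deletes Vsir, the gene of the coinhibitory protein VISTA, in developing thymocytes and therefore in both CD4+ and CD8+ T cells, while other cells keep it. The WT littermates carried the floxed gene without Cre. All mice received a TRP2 peptide vaccine on day 3 and 100 µg of antibody against CTLA-4 on days 4 and 8, and TILs were taken on day 18 after treatment. The ages of these mice are not given in the sources used here. The methods give 5 to 6 mice per pool and a legend gives 6 to 8 tumors. Both lineages were enriched and sorted into a single sample. Each genotype is 1 pool and 1 library, so no difference between the genotypes could be tested and mouse-to-mouse spread was not measured, and every interval below covers counting error only.

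The WT library held 10224 cells with at least 600 genes and less than 30% mitochondrial UMIs, and the library labelled VISTA-KO held 9946. A UMI marks 1 captured RNA molecule, and levels are given as UMIs of a gene per 1000000 UMIs (CPM), both summed over a class of cells. CD8 cells had a UMI of Cd8a or Cd8b1 and none of Cd4 (5482 WT and 4301 VISTA-KO cells). Conventional CD4 cells had Cd4 without Foxp3 (1661 and 2983), regulatory cells had both (1491 and 1260), and cells with at least 2 UMIs of Siglech, a marker of plasmacytoid dendritic cells, formed a class of their own (221 and 138). The libraries shared 145 cell barcodes. Vsir itself was counted at 112 in WT and 112 CPM in VISTA-KO CD8 cells, and its intervals overlapped in all 4 classes. Which part of the transcript the deletion removes is not given in the sources used here, so this count does not check the genotypes, and WT and VISTA-KO below mean the libraries so labelled.

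The gates were not equally pure. A Cd8a or Cd8b1 UMI was present in 50.9% of WT and 29.1% of VISTA-KO regulatory cells and in 29.9% and 19.7% of conventional CD4 cells, and a Foxp3 UMI in 6.26% and 4.05% of CD8 cells. Median depth also differed, at 8739 UMIs per WT and 5908 per VISTA-KO regulatory cell. Strict gates that required a Cd3 UMI and removed cells with markers of another T cell class left 731 WT and 891 VISTA-KO regulatory cells with median depths of 5252 and 5151 UMIs, 1153 and 2386 conventional CD4 cells, and 5121 and 4118 CD8 cells. Values under the strict gates are therefore given beside the main ones. The 4 melanoma genes Pmel, Mlana, Dct and Tyrp1 together also differed from WT to VISTA-KO, with 10.3 and 197 CPM in CD8 cells, 225 and 15.9 CPM in conventional CD4 cells, and 5.76 and 192 CPM in regulatory cells. Without the cells that held a UMI of these 4 genes, a setting chosen after the data were seen, the number of the 10 genes called between the libraries, by the rule given below, changed in conventional CD4 cells, from 0 to 1 (Tnfrsf9), and in no other class.

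Of the 10 genes, 5 lie on mouse chromosome 4, namely Tnfrsf4, Tnfrsf9, Tnfrsf18, Tnfrsf1b and Tnfsf8. In GRCm38.p6, Tnfrsf4 (chr4:156013595-156016613) and Tnfrsf18 (chr4:156026322-156028894) are 9708 bases apart with only Gm25982 listed between them. Among all pairs of the 10 genes these neighbors also had the most similar pattern of levels, as described below. The sequences before their starts are shown for that reason, with that of Tnfrsf9, the receptor that varied most between CD8 gates, and that of Tnfsf14, whose window holds a match to the AP-1 motif TGANTCA, in capitals. The sequences are those of RefSeq, written 5′ to 3′ on the strand of the gene, and leave out every base inside the gene.
Tnfrsf4, chr4:156013445-156013594, + strand: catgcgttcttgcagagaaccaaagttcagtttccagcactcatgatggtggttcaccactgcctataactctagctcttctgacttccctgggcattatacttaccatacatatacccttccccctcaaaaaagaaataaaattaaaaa
Tnfrsf18, chr4:156026072-156026321, + strand: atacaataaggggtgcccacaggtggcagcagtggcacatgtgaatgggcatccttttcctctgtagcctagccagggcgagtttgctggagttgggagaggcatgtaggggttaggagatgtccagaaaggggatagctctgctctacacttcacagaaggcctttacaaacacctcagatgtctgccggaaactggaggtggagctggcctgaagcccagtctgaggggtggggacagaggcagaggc
Tnfrsf9, chr4:150919905-150920154, + strand: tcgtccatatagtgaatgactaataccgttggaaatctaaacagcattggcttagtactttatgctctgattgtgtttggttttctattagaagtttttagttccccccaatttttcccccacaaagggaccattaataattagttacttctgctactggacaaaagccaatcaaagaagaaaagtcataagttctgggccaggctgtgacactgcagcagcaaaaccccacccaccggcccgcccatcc
Tnfsf14, chr17:57194182-57194431, - strand: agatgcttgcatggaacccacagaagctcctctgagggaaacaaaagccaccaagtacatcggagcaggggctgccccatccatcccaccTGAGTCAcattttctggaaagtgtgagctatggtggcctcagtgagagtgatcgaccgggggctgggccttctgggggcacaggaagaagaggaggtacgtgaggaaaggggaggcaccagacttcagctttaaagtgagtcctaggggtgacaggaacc
RefSeq's table listed 9 starts for 8 of the 10 genes. On either strand of the 250 bases before each start, TGANTCA was found at 2 of the 9, that of Tnfsf14 and the second start of Tnfrsf9, against 6.75% of all 32851 promoters listed. A narrow form of the NF-kB motif, GGGA and TTCC with any 2 bases between them, was found at 0 of the 9 and in 1.21% of all promoters. Other forms of the motif were not searched, so these windows may still hold an NF-kB motif. A match of letters is no binding site.

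Regulatory cells stood out by their receptors. Tnfrsf4 was at 1062 in WT and 1229.7 CPM in VISTA-KO regulatory cells, at 304 and 236 CPM in conventional CD4 cells, and at 138 and 73.5 CPM in CD8 cells. Tnfrsf18 followed the same order, with 747 and 866 CPM in regulatory, 342 and 301 CPM in conventional CD4, and 201 and 168 CPM in CD8 cells. Tnfrsf9, whose protein is a target of agonist antibodies in tumor models, was at 776 and 891 CPM in regulatory cells, 203 and 135 CPM in conventional CD4 cells and 243 and 214 CPM in CD8 cells. For these 3 receptors both regulatory values lay above every value of the other T cell classes, and no interval overlapped. The order of the lower classes was conventional CD4 over CD8 for Tnfrsf4 and Tnfrsf18 and the reverse for Tnfrsf9.

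Tnfrsf1b, the receptor for membrane-bound TNF, was higher in regulatory cells too (159 in WT and 193 CPM in VISTA-KO) than in CD8 cells (85.1 and 93.4) or conventional CD4 cells (79.3 and 86.6). Its levels in CD8 and conventional CD4 cells lay close together, and their intervals overlapped in both libraries. Cd27, which binds CD70, had another order. It was at 220 and 221 CPM in regulatory, 185 and 178 CPM in CD8, and 118 and 95.8 CPM in conventional CD4 cells.

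The ligands had another order. Cd40lg was at 138 in WT and 207 CPM in VISTA-KO conventional CD4 cells, at 23.2 and 43.5 CPM in regulatory cells, and at 6.88 and 16.6 CPM in CD8 cells. Tnfsf8, the ligand of CD30, was at 52.7 and 57.9 CPM in conventional CD4 cells against 11.6 and 12.1 CPM in regulatory and 10.1 and 11.7 CPM in CD8 cells, where its intervals overlapped those of regulatory cells. Tnfsf11, which drives osteoclasts and lymph node development through RANK, was at 53.5 and 67.0 CPM in conventional CD4 cells, 16.0 and 19.4 CPM in regulatory cells and 10.1 and 10.3 CPM in CD8 cells. Each of these 3 ligands was highest in conventional CD4 cells in both libraries.

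Tnfsf14, a ligand of HVEM and of the lymphotoxin beta receptor, was at 21.3 and 26.0 CPM in conventional CD4 cells, 13.4 and 19.7 CPM in CD8 cells and 6.68 and 10.7 CPM in regulatory cells. Tnfsf4, better known from antigen-presenting cells as the ligand of OX40, was the only one of the ligands highest in CD8 cells, at 11.5 CPM in WT (422 UMIs) and 6.34 CPM in VISTA-KO (177 UMIs). It was at 4.42 and 2.87 CPM in conventional CD4 cells and at 3.65 and 0.633 CPM in regulatory cells.

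**Figure D1:**
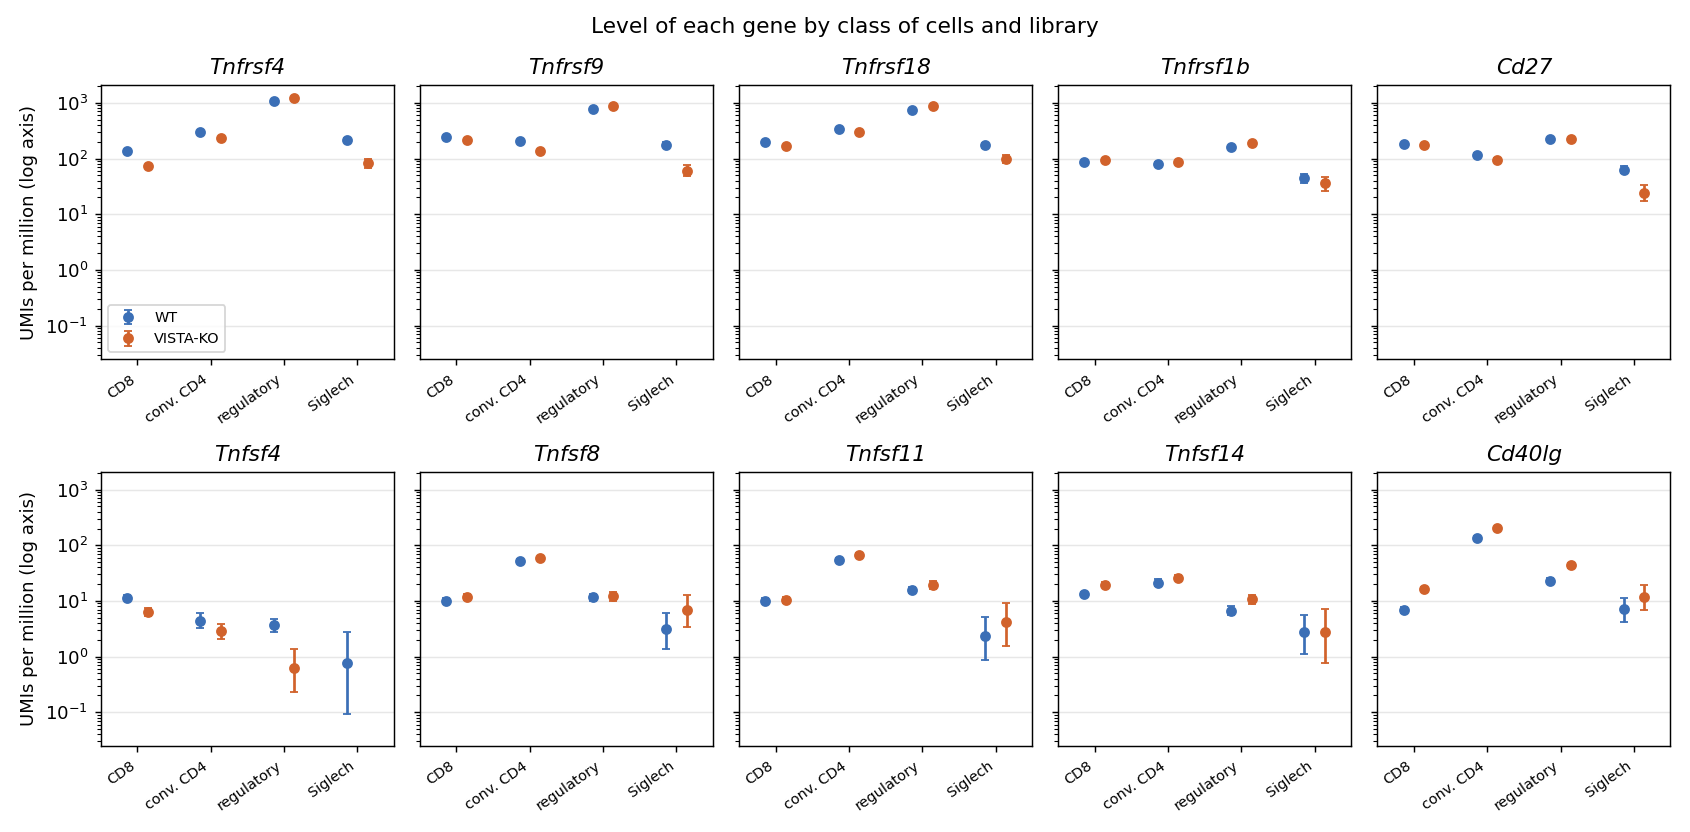
Level of each of the 10 genes in CPM (log axis) in the 4 classes of cells of the WT and VISTA-KO libraries, with exact 95% Poisson intervals. Tnfrsf4, Tnfrsf9 and Tnfrsf18 are highest in regulatory cells and Cd40lg, Tnfsf8 and Tnfsf11 in conventional CD4 cells in both libraries; Tnfsf4 had 0 UMIs in VISTA-KO Siglech cells and has no point there.

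Set against all genes, a gene counted as higher in a class when it was at least 2-fold higher in both libraries after 5 CPM were added to each level, among genes with at least 20 CPM in either class. Between regulatory and conventional CD4 cells, Tnfrsf4, Tnfrsf9 and Tnfrsf18 were higher in regulatory cells (1.43% of 6152 genes were) and Tnfsf8, Tnfsf11 and Cd40lg were higher in conventional CD4 cells (0.488%). In that comparison 9 of the 10 genes had the level of 20 CPM. Between regulatory and CD8 cells only 6 had it. Of these, Tnfrsf4, Tnfrsf9, Tnfrsf18 and Cd40lg were higher in regulatory cells (2.28% of 6132 genes), and none was higher in CD8 cells (0.864%). Tnfsf4, below that level, was 1.90-fold higher in CD8 than in regulatory cells in WT and 2.01-fold in VISTA-KO. The added 5 CPM understate the difference of so low a gene, and its VISTA-KO regulatory level rests on 6 UMIs. Between conventional CD4 and CD8 cells 9 had the level. Tnfrsf4, Tnfsf8, Tnfsf11 and Cd40lg were higher in conventional CD4 cells (0.69% of 6085 genes), with none of the 9 the other way (0.296%). The classes come from the same 2 pools and are not replicates.

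The strict gates widened several of these differences. Tnfrsf4 was then at 1589 in WT and 1469 CPM in VISTA-KO regulatory cells and at 59.1 and 44.1 CPM in CD8 cells, a difference of 24.9-fold and 30.03-fold after adding 5 CPM, against 7.46-fold and 15.7-fold under the main gates. For Cd40lg, conventional CD4 over CD8 cells went from 12.0-fold and 9.85-fold to 18.5-fold and 11.6-fold. Tnfrsf1b and Cd27 also passed 2-fold between regulatory and conventional CD4 cells in both libraries under the strict gates. The count thus rose from 3 to 5 genes, but the share of all genes was not computed under these gates. Whether the rise is particular to these genes was not tested. Cd27 was then also 2.60-fold and 2.19-fold higher in CD8 than in conventional CD4 cells.

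Shares of cells with a UMI gave the same picture. After thinning each cell to 2000 UMIs, Tnfrsf4 was detected in 78.9% of WT regulatory cells (95% Clopper-Pearson interval 76.7 to 81.0) and in 77.8% (75.3 to 80.1) of VISTA-KO ones, in 33.6% and 25.2% of conventional CD4 cells, and in 8.38% and 6.29% of CD8 cells. In Siglech cells, which should lack T cell genes, it was detected in 13.2% (9.01 to 18.4) and 9.49% (5.15 to 15.7), so the shares of CD8 cells were no higher. The Siglech class also held T cell RNA, as given below, and a Foxp3 UMI in 18.6% of WT and 9.42% of VISTA-KO cells. It is therefore no clean background for Tnfrsf4, and whether the shares of CD8 cells exceed background cannot be read from it. Without thinning the shares of regulatory cells were 96.0% and 92.5% and those of CD8 cells 15.4% and 11.4%, with median depths of 8739 and 5908 UMIs in regulatory, 4819 and 5196 in CD8, and 9181 and 9485.5 in Siglech cells. Cd27 was detected in 28.9% and 29.9% of CD8 cells after thinning, against 5.91% and 3.65% of Siglech cells. Cd40lg was detected in 26.8% of WT and 33.9% of VISTA-KO conventional CD4 cells, against 0.455% and 0.73% of Siglech cells.

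The Siglech class carried markers of plasmacytoid dendritic cells, 13724 CPM over the 9 listed markers in WT and 15878 CPM in VISTA-KO, against at most 362 CPM in any T cell class. Siglech itself is among the 9, so part of this contrast was set by the gate. It also held T cell RNA, with 1260.3 CPM over Cd3e, Cd3d, Cd3g and Trac in WT and 631 CPM in VISTA-KO. Tnfrsf4 was at 215 and 81.8 CPM in this class, Tnfrsf9 at 178 and 60.8 CPM, Tnfrsf18 at 173 and 99.3 CPM and Cd27 at 63.3 and 24.5 CPM. These 4 receptors were called lower in VISTA-KO (3.92% of 6405 genes were, and 1.87% higher), as was the T cell list at a ratio of 0.501 (0.465 to 0.539). Once likely doublets were removed, 103 WT and 78 VISTA-KO cells were left, and Tnfrsf4 (24.9 in WT and 43.3 CPM in VISTA-KO) and Tnfrsf18 (52.0 and 62.9 CPM) turned to the other direction. The doublet rule also takes out cells with UMIs of Cd4 and of Cd8a or Cd8b1. A Cd8a or Cd8b1 UMI was present in 82.8% of WT and 78.3% of VISTA-KO Siglech cells. Cd8a was at 392 and 289 CPM before that removal and at 376 and 281 CPM after it. Whether the cells taken out were doublets was not tested. No difference between the libraries is read from this class.

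The libraries were then compared gene by gene within the T cell classes. A gene was called when VISTA-KO over WT reached 1.5-fold either way after adding 5 CPM, among genes with at least 20 CPM in 1 library. In CD8 cells 5 of the 10 genes had that level, all of them receptors, and 1 was called, Tnfrsf4, which was lower in VISTA-KO (0.594% of 6065 genes were called lower and 0.824% higher). In conventional CD4 cells 9 had it and 0 were called (1.01% of 6261 genes were called higher and 1.1% lower). In regulatory cells 6 had it and 1 was called, Cd40lg, which was higher (1.93% of 6274 genes higher and 1.79% lower). The median log2 ratio of the genes with that level was -0.18 in CD8, 0.12 in conventional CD4 and 0.21 in regulatory cells, against -0.03, -0.04 and -0.01 over all genes. Over all 10 genes, low ones included, it was -0.02, -0.03 and 0.21.

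Cd40lg was the gene with the widest difference upward. In CD8 cells its level was 6.88 CPM from 253 UMIs in the WT library and 16.6 CPM from 463 UMIs in the library labelled VISTA-KO. The ratio was 2.41 (2.06 to 2.82), although both levels were below 20 CPM and so outside the count above. In Siglech cells, which also held T cell RNA, Cd40lg was at 7.03 and 11.9 CPM, from 18 and 17 UMIs, a ratio of 1.69 (0.819 to 3.48). The intervals of the CD8 levels lay within those of Siglech cells in both libraries, so the CD8 levels are not separated from that class. The ratio was 1.51 (1.41 to 1.61) in conventional CD4 cells and 1.87 (1.63 to 2.15) in regulatory cells. Under the strict gates it was 2.48 (2.11 to 2.92) in CD8 cells, 1.17 (1.08 to 1.26) in conventional CD4 cells and 1.48 (1.22 to 1.81) in regulatory cells. In CD8 cells with at least 3 UMIs of Cd8a and Cd8b1 and no Foxp3 UMI, a setting chosen after the data were seen, it was 2.82 (2.35 to 3.40). Thinned WT CD8 cells held a Cd40lg UMI in 1.17% of cells (0.90 to 1.51), and VISTA-KO ones in 3.5% (2.96 to 4.11). Without thinning these shares were 2.96% and 6.35%. Siglech cells held a Cd40lg UMI in 0.455% and 0.73% of cells after thinning. Without thinning, and at a greater median depth than CD8 cells, they held it in 5.43% and 7.25%. Over 14 alternative settings the fold after adding 5 CPM, or 1 CPM in one of them, ran from 1.78 to 2.23 in CD8, from 1.12 to 1.56 in conventional CD4 and from 1.37 to 1.84 in regulatory cells. The CD8 ratio was thus as large under the strict gates and with at least 3 UMIs of Cd8a and Cd8b1. The conventional CD4 and regulatory ratios were smaller under the strict gates. The main CD8 gate already excluded cells with a Cd4 UMI, so the strict gate removed none on that ground. Neither setting takes Cd40lg RNA of conventional CD4 cells out of the CD8 cells that remain. Conventional CD4 cells were 1661 of 10224 kept WT and 2983 of 9946 kept VISTA-KO cells. Their part in the CD8 ratio was not tested.

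Markers of gamma-delta T cells moved with Cd40lg in CD8 and regulatory cells. The constant region genes Trdc and Tcrg-C1 together stood at 4.22 (WT) and 11.6 CPM (VISTA-KO) in CD8 cells, a ratio of 2.75 (2.26 to 3.35), and at 2.23 and 8.33 CPM in regulatory cells, a ratio of 3.74 (2.52 to 5.64), while in conventional CD4 cells they were level at 8.02 and 8.09 CPM. Without the cells that held a UMI of either gene, a setting chosen after the data were seen, the ratio of Cd40lg was 2.42 (2.06 to 2.84) in CD8, 1.502 (1.41 to 1.60) in conventional CD4 and 1.86 (1.61 to 2.14) in regulatory cells.

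Tnfrsf4 was the widest difference downward among genes above 20 CPM. WT CD8 cells had 138 CPM from 5075 UMIs, and those of the library labelled VISTA-KO had 73.5 CPM from 2053 UMIs. The ratio was 0.532 (0.505 to 0.560). Foxp3 RNA in the same cells went from 37.4 to 19.9 CPM (0.532). The 4 listed regulatory T cell markers together, Foxp3, Il2ra, Ikzf2 and Ikzf4, went from 160 to 122 CPM, a ratio of 0.763 (0.731 to 0.796). The part of regulatory cells in the Tnfrsf4 difference was not tested. Under the strict gates, which leave no Foxp3 UMI in CD8 cells, Tnfrsf4 was at 59.1 and 44.1 CPM, a ratio of 0.746 (0.693 to 0.803), and it was no longer called. It was also not called once cells with a Mki67 or Top2a UMI, a sign of division, were left out. In conventional CD4 cells the ratio was 0.777 (0.740 to 0.816), and 0.724 (0.683 to 0.767) under the strict gates. In regulatory cells it was 1.16 (1.13 to 1.19) under the main and 0.924 (0.896 to 0.953) under the strict gates.

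The receptors Tnfrsf9, Tnfrsf18 and Tnfrsf1b of regulatory cells also lay nearer to 1 under the strict gates. Tnfrsf9 had a ratio of 1.15 (1.12 to 1.18) under the main gates and 0.996 (0.959 to 1.03) under the strict ones. For Tnfrsf18 the ratios were 1.16 (1.13 to 1.19) and 0.983 (0.947 to 1.02), and for Tnfrsf1b 1.22 (1.14 to 1.29) and 1.07 (0.98 to 1.16). Cd27 stood at 1.00 (0.949 to 1.06) and 0.986 (0.91 to 1.07). Under the strict gates, where median depth was alike, the ratios of the 5 receptors thus ran from 0.924 to 1.07. The thinned share of regulatory cells with a Tnfrsf9 UMI ran against the CPM of the main gates, at 65.4% in WT and 59.7% in VISTA-KO, and no order is read from it.

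In CD8 cells the remaining receptors differed little. Tnfrsf9 had a ratio of 0.879 (0.851 to 0.908) and 0.968 (0.933 to 1.00) under the strict gates, and Tnfrsf18 one of 0.839 (0.809 to 0.871) and 0.945 (0.907 to 0.986). Tnfrsf1b had 1.10 (1.04 to 1.16) and Cd27 0.96 (0.925 to 0.995). Without dividing cells, the folds of Tnfrsf9 and Cd27 after adding 5 CPM were 1.14 and 1.03, above 1. In conventional CD4 cells Tnfrsf9 was at a ratio of 0.666 (0.626 to 0.709), and at 0.911 (0.829 to 1.00) under the strict gates. Cd27 turned there from 0.814 (0.753 to 0.880) to 1.15 (1.01 to 1.32).

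Of the low ligands, Tnfsf14 and Tnfsf4 moved in opposite directions in CD8 cells. Tnfsf14 rested on 493 UMIs in WT and 551 in VISTA-KO, a ratio of 1.47 (1.30 to 1.66), and of 1.48 (1.30 to 1.68) under the strict gates. Tnfsf4 had a ratio of 0.552 (0.460 to 0.659), and of 0.543 (0.452 to 0.652) under the strict gates. Both kept their direction in all 14 alternative settings. Without dividing cells, the fold of Tnfsf4 after adding 5 CPM was 0.94, and without likely doublets 0.904, against 0.688 under the main setting. Tnfsf8 and Tnfsf11 had intervals that included 1 in CD8 cells, 1.16 (0.994 to 1.35) and 1.02 (0.871 to 1.19). Tnfsf11 was at 1.25 (1.13 to 1.39) in conventional CD4 cells and at 0.976 (0.862 to 1.11) under the strict gates.

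**Figure D2:**
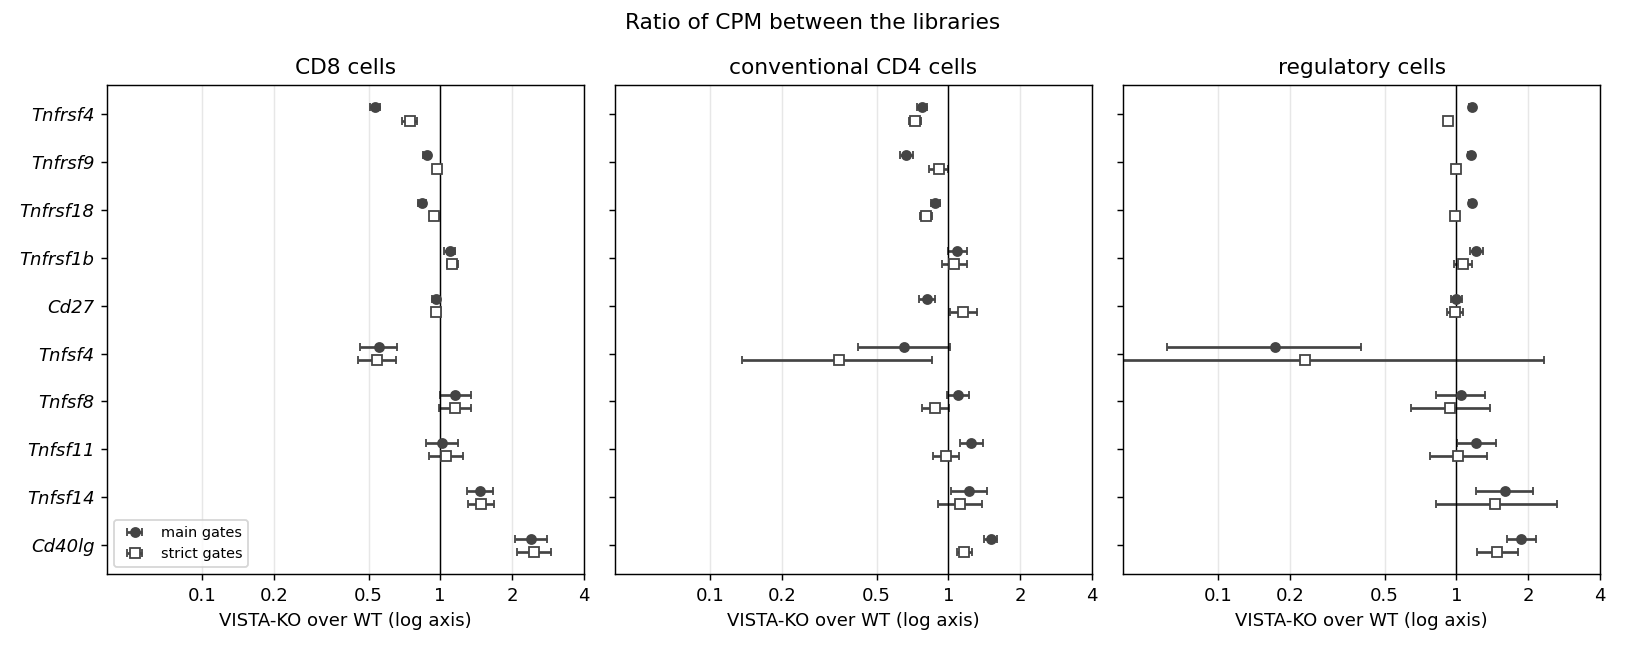
Ratio of CPM, VISTA-KO over WT (log axis), of each gene in CD8, conventional CD4 and regulatory cells under the main gates (filled circles) and the strict gates (open squares), with exact 95% intervals that cover counting error only. Cd40lg lies above 1 in all 3 classes under both gates, Tnfrsf4, Tnfrsf9 and Tnfrsf18 of regulatory cells move from 1.15 to 1.16 down to between 0.924 and 0.996 under the strict gates, and the strict interval of Tnfsf4 in regulatory cells, which rests on 5 UMIs, runs past the left edge.

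How the genes varied within CD8 cells was read from gates on Tcf7, a transcription factor of naive, memory and progenitor cells, and on the inhibitory receptor genes Pdcd1 (PD-1) and Havcr2 (TIM-3). Tnfrsf9 was at 32.2 in WT and 30.4 CPM in VISTA-KO cells with Tcf7 and no Pdcd1. It was at 201 and 147 CPM with Tcf7 and Pdcd1, at 219 and 233 CPM with Pdcd1 alone, at 87.7 and 137 CPM with none of the 3 genes, and at 501 and 394 CPM with Havcr2 and no Tcf7. The highest gate was 15.5-fold (13.5 to 18) over the lowest in WT and 13-fold (11.1 to 15.2) in VISTA-KO. Tnfrsf4 shared both ends of that order, with 23.9 and 23.8 CPM in the lowest and 196 and 97.4 CPM in the highest gate. Cd27 was nearly level, from 147 to 215 CPM in WT and from 147 to 201 CPM in VISTA-KO.

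The ligands Cd40lg and Tnfsf8 ran the opposite way. Cd40lg was at 12.2 and 29.1 CPM in cells with Tcf7 and no Pdcd1 and at 1.25 and 3.65 CPM in cells with Havcr2 and no Tcf7. Tnfsf8 was at 25.7 and 27.3 CPM in the former and at 4.68 and 3.78 CPM in the latter. Tnfsf4 and Tnfsf11 were highest in cells with both Tcf7 and Pdcd1, the usual description of progenitor exhausted cells, at 20.1 and 11.8 CPM and at 20.9 and 22.4 CPM. For Tnfsf4 the intervals overlapped in both libraries those of cells with Havcr2 and no Tcf7, at 15.8 and 9.99 CPM. These gates are thus not separated for Tnfsf4.

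The difference in Cd40lg between the libraries was present in each of the 5 CD8 gates. The ratio ran from 1.79 to 3.04, and its interval lay above 1 in 5 of 5. Tnfsf14 was above 1 in 5 of 5 gates (1.16 to 1.91), with the interval above 1 in 4. For Tnfrsf4 the ratio was 0.997 (0.782 to 1.27) in cells with Tcf7 and no Pdcd1, and 0.481, 0.497 and 0.522 in the gates with Tcf7 and Pdcd1, with Havcr2, and with Pdcd1 alone. In cells with none of the 3 genes it was 0.877 (0.758 to 1.01), so the interval held 1 in 2 of the 5 gates. The ratio of Tnfrsf9 ran from 0.731 (0.664 to 0.803) with Tcf7 and Pdcd1 to 1.56 (1.36 to 1.79) with none of the 3 genes. Its interval lay above 1 in 1 gate and below 1 in 2. That of Tnfrsf18 ran from 0.682 (0.623 to 0.746) to 1.20 (1.08 to 1.33) in the same 2 gates, with the interval above 1 in 1 gate and below 1 in 4. These gates lie within the main CD8 class, cells with Foxp3 UMIs included.

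Tnfrsf18 and Tnfrsf1b varied less over the CD8 gates. Tnfrsf18 ran from 148 to 235 CPM in WT and from 128 to 193 CPM in VISTA-KO, lowest in both in cells with Tcf7 and no Pdcd1. Tnfrsf1b ran from 51.7 to 105 CPM and from 61.5 to 119.7 CPM, with the same lowest gate and its highest level in cells with Havcr2. Tnfsf14 had its lowest level there, at 5.62 and 10.7 CPM, against 20.8 and 29.3 CPM in cells with none of the 3 genes.

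**Figure D3:**
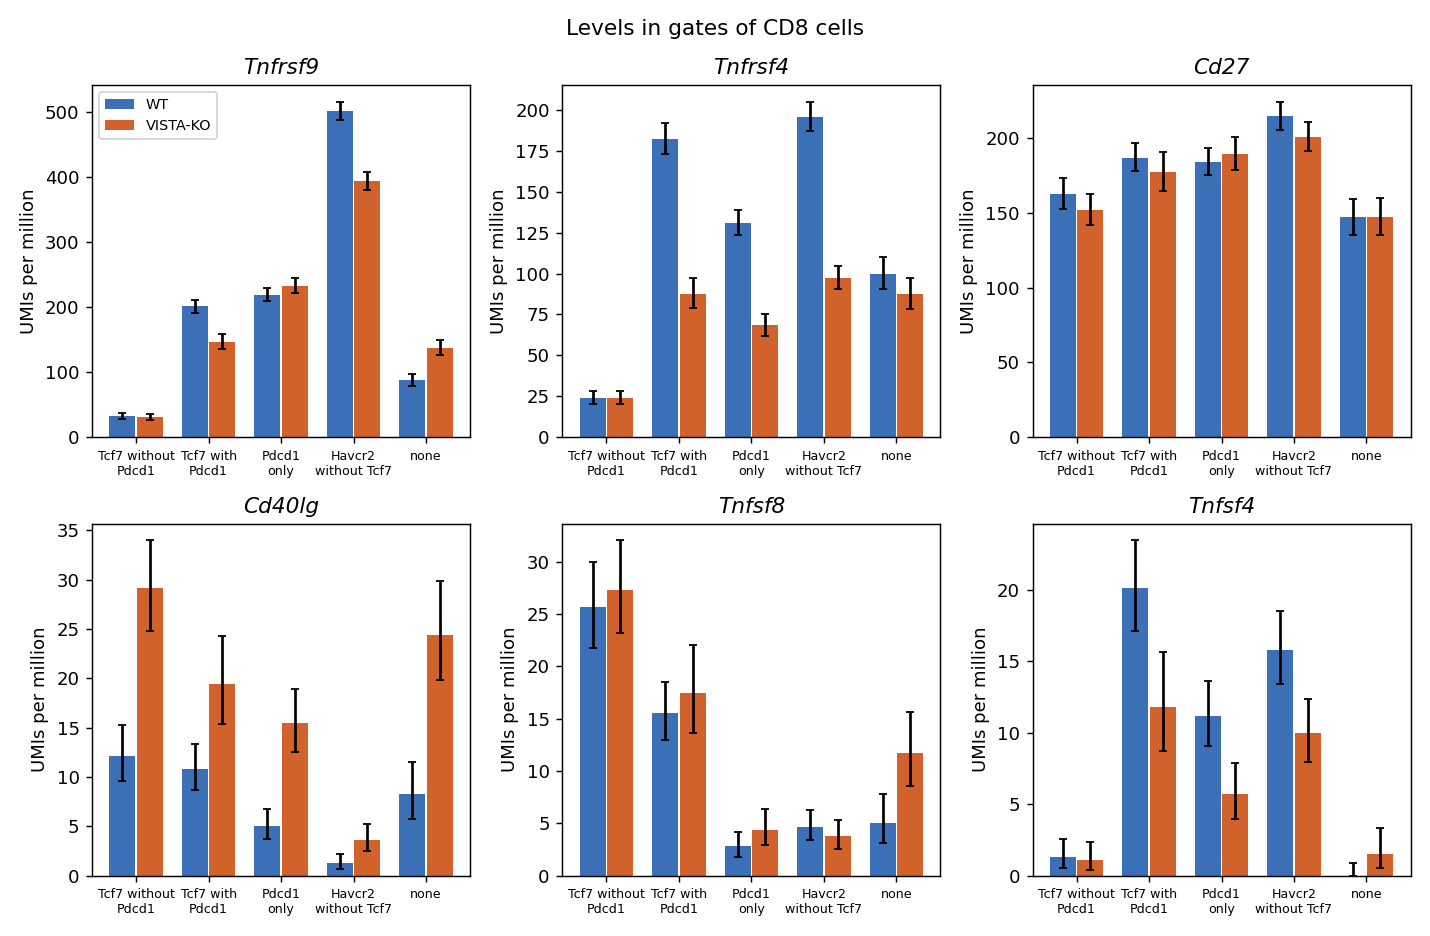
Levels in CPM of 6 genes in 5 gates of CD8 cells (x axis) of the WT and VISTA-KO libraries; bars start at 0 and error bars are exact 95% Poisson intervals. Tnfrsf9 rises to 501 and 394 in cells with Havcr2 and no Tcf7, where Cd40lg and Tnfsf8 are low, and Cd40lg is higher in VISTA-KO in every gate.

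Among conventional CD4 cells, those with Cxcr5 or Il21, genes of follicular helper cells, were set beside those with Cxcr6, a chemokine receptor of tissue-resident cells, and neither of the first genes. Tnfrsf4 was at 562 and 410 CPM in the 45 WT and 73 VISTA-KO cells with Cxcr5 or Il21, against 256 and 200.2 CPM in the 1068 and 1901 cells with Cxcr6, so that it was higher in the first gate in both libraries. Tnfsf8 was at 12.3 CPM in WT, from 4 UMIs, and at 52.4 CPM in VISTA-KO in the first gate, against 44.5 and 51.2 CPM in cells with Cxcr6. Tnfsf14 was at 43.0 and 18.1 CPM, from 14 and 10 UMIs, against 21.02 and 29.7 CPM, and the Poisson intervals of the gates overlapped in both libraries. Cd40lg was at 132 and 166 CPM in the first gate and at 129 and 213 CPM in cells with Cxcr6. Its ratio of VISTA-KO to WT was 1.26 in the first gate, with an interval that held 1, and 1.65 in cells with Cxcr6, with an interval above 1.

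Among regulatory cells, those with Itgae were set beside those with Il1rl1 (the IL-33 receptor gene) and no Itgae. In WT, Tnfrsf4 was at 1679.6 CPM in the 35 cells with Il1rl1 and at 1054 CPM in the 581 cells with Itgae, whereas in VISTA-KO it was at 1218 CPM in the 79 cells with Il1rl1 and at 1193 CPM in the 506 cells with Itgae. Tnfrsf9 was at 916 and 979 CPM in WT and VISTA-KO cells with Il1rl1, against 796 and 852 CPM in cells with Itgae, and Tnfrsf18 was at 796 and 933 CPM against 757 and 869 CPM. The ligand Tnfsf8 was at 42.6 CPM, from 25 UMIs, in VISTA-KO cells with Il1rl1, against 9.29 CPM in those with Itgae. In WT it was at 17.2 CPM, from 7 UMIs, against 9.78 CPM.

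T cell receptor sequences gave the size of each clone, a measure apart from these RNA levels. Clonotypes were counted over all kept cells of a library, and 75.7% of WT and 80.3% of VISTA-KO CD8 cells had a clonotype. Among CD8 cells, Tnfrsf9 was at 164 in WT and 168 CPM in VISTA-KO cells whose clonotype held 1 cell, at 217 and 252 CPM in clonotypes of 2 to 9 cells, and at 373 and 308 CPM in those of 10 to 99 cells. It was at 83.2 and 132 CPM in clonotypes of 100 cells or more, of which each library had 2. Tnfrsf4 was at 176 and 95.2 CPM in clonotypes of 1 cell, 177 and 79.3 CPM in those of 2 to 9 cells, 82.5 and 60.4 CPM in those of 10 to 99 cells, and 27.9 and 27.1 CPM in the largest ones. Tnfrsf9 was thus highest in the middle sizes and Tnfrsf4 in the small ones, within the main CD8 class, cells with Foxp3 UMIs included. Levels by clone size were not computed under the strict gates, which took Tnfrsf4 of CD8 cells from 138 to 59.1 CPM in WT. In VISTA-KO they took it from 73.5 to 44.1 CPM. The part of cells of other classes in the Tnfrsf4 order was not tested. Tnfsf8 was at 32.8 and 25.5 CPM in clonotypes of 1 cell and at 1.12 and 0.554 CPM in the largest ones. Cd40lg was at 12.1 in WT and 26.3 CPM in VISTA-KO clonotypes of 1 cell, and at 13.6 and 13.8 CPM in those of 2 to 9 cells. It was at 1.45 and 9.97 CPM in those of 10 to 99 cells, from 13 and 47 UMIs, and at 1.40 and 0.554 CPM in the largest ones. The difference in Cd40lg was thus not present at every clone size, and its intervals overlapped in clonotypes of 2 to 9 cells and in the largest ones. Tnfsf4 was at 4.45, 18, 19.6 and 1.96 CPM over the 4 sizes in WT and at 4.49, 5.18, 12.1 and 4.15 CPM in VISTA-KO. Cd27 kept within 171 and 196 CPM in the WT sizes and within 173 and 189 CPM in the VISTA-KO ones.

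The pooled Tnfrsf9 values of middle-sized clonotypes were spread unevenly over them. Of the clonotypes with at least 10 CD8 cells there were 54 in WT and 41 in VISTA-KO. Weighted equally, they had a median of 115 CPM in WT (quartiles 22.1 and 324, range 0 to 1042) and of 54.0 CPM in VISTA-KO (quartiles 18.9 and 133, range 0 to 1078). The level of single-cell clonotypes, 164 and 168 CPM, is pooled over many cells, so these medians are not set against it. Of the clonotypes, 23 of the 54 and 9 of the 41 lay above that pooled level. Of those with under 100 CD8 cells, the 3 with most Tnfrsf9 UMIs held 40.7% of the WT Tnfrsf9 UMIs in 10.3% of the cells and 72.7% of the VISTA-KO ones in 13.4% of the cells. Without these 3, the remaining 49 WT clonotypes were at 269 CPM (257 to 281), against 370 CPM with them. The remaining 36 VISTA-KO ones were at 108 CPM (97.6 to 119), against 306 CPM with them. The 3 were picked by their Tnfrsf9 UMIs, so a fall was set by the choice. Nothing was taken out of the smaller sizes, so no order against them is read. In 9 clonotypes of each library no Tnfrsf9 UMI was counted, where 1 UMI is worth at most 29.4 and 30.5 CPM. Cd27 spread far less, with quartiles of 147 and 225 CPM in WT and 141 and 227 CPM in VISTA-KO.

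The largest clonotypes also differed from each other. The largest WT clonotype (1034 CD8 cells) had 23.4 CPM of Tnfrsf9 and 4.6 CPM of Tnfrsf4, and the second (318 cells) had 224 and 82.7 CPM. In VISTA-KO the largest (291 cells) had 57.8 and 14.1 CPM, and the second (147 cells) had 258 and 49.0 CPM. In both libraries the second clonotype was the higher one for both genes. Without the 2 largest clonotypes of each library, a setting chosen after the data were seen, the CD8 fold of Tnfrsf9 after adding 5 CPM went from 0.882 to 0.805 and that of Tnfrsf4 from 0.549 to 0.503.

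**Figure D4:**
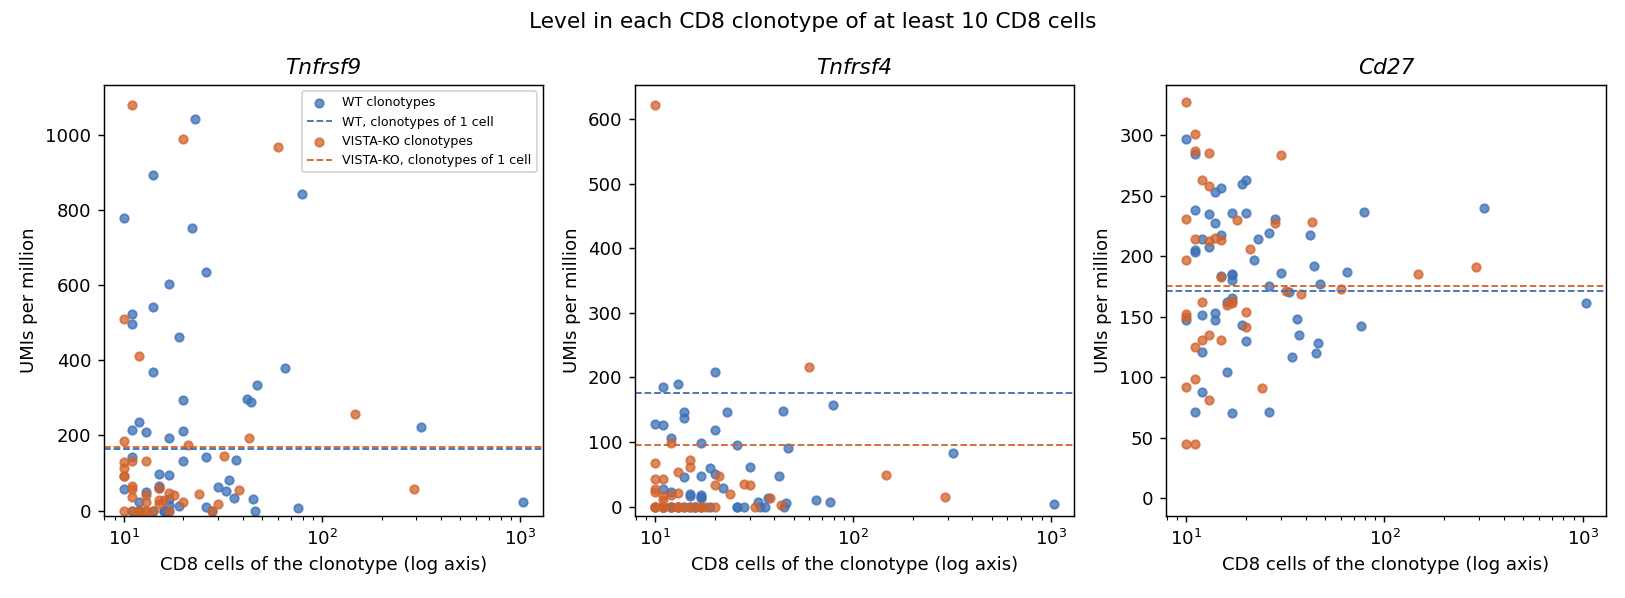
Level of Tnfrsf9, Tnfrsf4 and Cd27 in CPM in each CD8 clonotype with at least 10 CD8 cells, against its number of CD8 cells (log axis). Dashed lines mark the pooled level of clonotypes of 1 cell in each library. Tnfrsf9 runs from 0 to 1042 in the 54 WT and from 0 to 1078 in the 41 VISTA-KO clonotypes, while Cd27 stays between 44.3 and 327.

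In conventional CD4 and regulatory cells the genes varied with clone size in different ways. Only 50.7% of WT and 72.6% of VISTA-KO regulatory cells had a clonotype, and 68.2% and 77.3% of conventional CD4 cells. Over all regulatory cells Tnfrsf4 was at 1062 in WT and 1229.7 CPM in VISTA-KO, so the cells with a clonotype differ from the class. Regulatory cells of single-cell clonotypes had 1422 CPM of Tnfrsf4 in WT and 1302 CPM in VISTA-KO, and those of clonotypes of 2 to 9 cells had 1591 and 1515 CPM. Tnfrsf9 was at 996 and 951 CPM in the former and at 1028 and 1229.6 CPM in the latter. In the 101 WT regulatory cells of clonotypes of 10 to 99 cells, these genes were at 1247 and 952 CPM, and VISTA-KO had 12 such cells. Cd40lg was at 34.0, 14.01 and 6.85 CPM over these 3 sizes in WT regulatory cells, the last from 6 UMIs, and was at 36.3 and 29.4 CPM in the first 2 sizes in VISTA-KO. In conventional CD4 cells, Cd40lg was at 194 and 221 CPM in clonotypes of 1 cell and at 215 and 249.2 CPM in those of 2 to 9 cells, and at 129 and 252 CPM in those of 10 to 99 cells. Tnfrsf9 was at 129, 169 and 342 CPM over these sizes in WT conventional CD4 cells, and at 131, 141 and 107 CPM in VISTA-KO ones. It was thus highest in the largest of these sizes in WT and lowest there in VISTA-KO. These cells are those of the main gates, where 29.9% of WT and 19.7% of VISTA-KO conventional CD4 cells held a Cd8a or Cd8b1 UMI. Levels by clone size were not computed under the strict gates, which moved the Tnfrsf9 ratio of this class from 0.666 to 0.911. The part of CD8 cells in these values was not tested.

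Pairs of receptors were counted in the same thinned cells. Tnfrsf4 and Tnfrsf9 were found together in 4.74% of WT CD8 cells (4.18 to 5.35), where the product of the single shares was 1.30%, and in 3.40% of VISTA-KO ones (2.87 to 4.0) against 0.905%. The observed share was 3.65 times and 3.76 times the product. In conventional CD4 cells it was 1.59 times and 2.09 times, and in regulatory cells 1.07 times and 1.11 times, where most cells had a UMI of each gene. For Tnfrsf4 with Tnfrsf18 the values were 2.36 and 2.33 times in CD8 and 1.07 and 1.05 times in regulatory cells. Cd27 with Tnfrsf9 in CD8 cells was at 1.20 and 1.15 times. The ligands Tnfsf8 and Cd40lg in conventional CD4 cells were at 1.13 and 1.06 times, 3.08% (2.27 to 4.07) and 3.47% (2.83 to 4.21) of cells. Cells of 1 library are not replicates. In Siglech cells, which also held T cell RNA, Tnfrsf4 and Tnfrsf9 were together in 5.91% and 2.92% of cells, 4.70 times and 4.22 times the product. The part of doublets in the pairs was not tested.

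Likeness of pattern was measured by Pearson's r of log2(CPM + 5) over the 14 gates of both libraries, 28 points that share libraries and are not independent. Among 7513 genes, Izumo1r (r = 0.95), the folate receptor 4 gene of regulatory cells, Mif4gd (0.95) and Odc1 (0.95) were most like Tnfrsf4. Those most like Tnfrsf9 were C1qtnf6 (0.96), Itgav (0.95) and Ctla4 (0.94), and those most like Tnfrsf18 were Odc1, Crem and Dgat1 (0.96 each). Tnfrsf4 and Tnfrsf18 had r = 0.94 with each other. For Tnfrsf1b the 3 were Glrx, Actg1 and Pglyrp1 (0.92 to 0.93), and for Cd27 they were Gstp3, Hdac7 and Agfg1 (0.87 to 0.92). Among the ligands, Cd40lg was nearest to Tnfrsf25 (0.90), the gene of another TNF receptor, followed by Ddx5 (0.89) and the immediate-early gene Egr1 (0.88). Tnfsf8 was nearest to St6gal1 (0.87), Tnfsf11 to Ramp3 (0.84), Tnfsf14 to Arhgap26 (0.86) and Tnfsf4 to Nrgn (0.84).

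The canonical partners of the 10 genes were mostly low in these sorted cells. Tnfsf18, the ligand of GITR, had 0 UMIs in CD8, regulatory and Siglech cells of both libraries and 2 in VISTA-KO conventional CD4 cells. In WT CD8 cells 0 counts allow up to 0.0816 CPM. Tnfsf9, the ligand of 4-1BB, was at 14.8 and 16.4 CPM in CD8 cells, 23.7 and 33.1 CPM in conventional CD4, 18.8 and 27.9 CPM in regulatory and 19.1 and 32.2 CPM in Siglech cells. Cd70, the ligand of CD27, was at 12.3 and 7.17 CPM in regulatory and 7.89 and 5.87 CPM in CD8 cells. Cd40, the receptor of CD40L, was at 25.4 and 16.1 CPM in Siglech cells and below 4 CPM in each T cell class. Of the receptors of Tnfsf14, Tnfrsf14 (HVEM) was at 6.28 to 9.18 CPM in the T cell classes, and Ltbr at 14.5 and 16.8 CPM in Siglech cells and 0.925 to 2.53 CPM in T cells. Tnfrsf8 (CD30) reached 7.07 CPM in VISTA-KO regulatory cells, and Tnfrsf11a (RANK) was below 3 CPM in every class.

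Of 49 other receptors, ligands and adaptors of the family, 19 had at least 20 CPM in CD8, 23 in conventional CD4 and 22 in regulatory cells. Tnf was called higher in VISTA-KO in all 3 classes and was the only call in the first 2, where 0.824% and 1.01% of all genes were called higher. It was at 42.9 and 67.6 CPM in CD8 cells, a ratio of 1.58 (1.47 to 1.69), with ratios of 1.68 (1.55 to 1.82) in conventional CD4 and 1.84 (1.63 to 2.06) in regulatory cells. Under the strict gates these were 1.53 (1.43 to 1.64), 1.63 (1.46 to 1.81) and 2.00 (1.65 to 2.42), and in CD8 cells Tnf was no longer called, at 1.48-fold after adding 5 CPM. Regulatory cells added Lta (18.5 and 35.1 CPM), Tnfrsf25 (16.0 and 36.7 CPM) and the adaptor gene Traf1 (336 and 525 CPM), so that 4 of 22 were called higher, against 1.93% of all genes. Their ratios were 1.90, 2.30 and 1.56 under the main gates and 1.42, 1.74 and 1.39 under the strict ones, where Lta and Traf1 were no longer called (1.34-fold and 1.38-fold after adding 5 CPM). In Siglech cells 22 of the list had at least 20 CPM. Tnfsf9 was called higher (1.87% of 6405 genes were) and Ltb lower (3.92%), at 329 and 187 CPM. The T cell RNA of that class was also lower in VISTA-KO, and no difference is read from these calls.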

How the data were processed

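Gene expression and T cell receptors of single TILs were read in 1 pooled library per genotype. Cell Ranger 5.0.0, per the file headers, was run by the authors with a GRCm38 reference. They deposited unnormalized UMI counts for each gene and barcode, and contig tables with the UMI counts of each receptor chain. The labels describe a 3′ kit and the methods a 5′ kit. Clusters made by the authors with Seurat 4 were not used here.

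The 10 genes, a pathway list of 49 genes and the marker lists were chosen with earlier results of these data known. Named were the 10 genes, their canonical partners, pathway genes past 1.5-fold and, for each of the 10, the 3 genes with the highest Pearson r.

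Kept cells had at least 600 genes and less than 30% mitochondrial UMIs and were gated on RNA as the report gives it. Cells with at least 2 Siglech UMIs were kept out of the T cell classes. The remaining gates of conventional CD4 and regulatory cells are not reported here. The classes held 36756944 (CD8), 9730738 (conventional CD4), 17525825 (regulatory) and 2560423 (Siglech) UMIs in WT, and 27936725, 15326930, 9481844 and 1430496 in VISTA-KO. Ratios have exact conditional binomial intervals, levels exact Poisson intervals and shares Clopper-Pearson intervals, all at 95%. Folds and log2 ratios after adding 5 CPM understate the change of low genes, while ratios with an interval add nothing. A count of 0 was taken to allow up to 3 counts. For shares, each cell was thinned to 2000 UMIs, which left out 290 WT and 186 VISTA-KO CD8 cells, 133 and 158 conventional CD4 cells, 45 and 51 regulatory cells, and 1 and 1 Siglech cells.

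No doublet caller was run and doublets were kept. An alternative removed cells with at least 2 productive beta chains, with UMIs of Cd4 and of Cd8a or Cd8b1, or with more than 3 times the median UMIs of their class. Other alternatives changed the added CPM, the minimum level, the centring, the gates and the cell filter, used mean per-cell CPM, or left out large clonotypes, dividing cells or cells with UMIs of gamma-delta T cell or melanoma genes. Clonotypes were defined by V gene and CDR3 of the best-covered alpha and beta chain. No p-value was computed. The scripts were tested on simulated data. Python 3.11.15, numpy 2.4.6, scipy 1.17.1, pandas 2.3.3 and matplotlib 3.10.9 were used.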

Additional observations from a re-analysis of the deposited data

How the results depend on the processing

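Depth limited the ligands most: Tnfsf4 rested on 64 WT and 6 VISTA-KO UMIs in regulatory cells. The cause of no change below was tested, and the share of all genes past a fold was computed for the main setting only. In CD8 cells the genes past 1.5-fold went from 1 (Tnfrsf4) to 2 (Tnfrsf4 and Cd40lg) with a minimum of 5 CPM or with mean per-cell CPM, and to 0 under the strict gates, without cells with a Mki67 or Top2a UMI, and with at least 3 Cd8a and Cd8b1 UMIs and no Foxp3 UMI, the last a setting chosen after the data were seen. The CD8 median log2 ratio, -0.18, became -0.020 with the minimum of 5 CPM, 0.027 with mean per-cell CPM, 0.034 without likely doublets and 0.10 without cells with a Mki67 or Top2a UMI. In conventional CD4 cells the count of 0 became 1 with 1 CPM added, with centring on all genes and with overlapping gates (Cd40lg), and 1 without the 2 largest clonotypes and without cells with a UMI of a melanoma gene (Tnfrsf9), both also chosen after the data were seen. Their median of 0.12 became -0.078 with mean per-cell CPM, -0.034 under the strict gates and -0.008 without likely doublets. In regulatory cells the count of 1 became 0 with mean per-cell CPM, under the strict gates, without likely doublets and without cells with a Mki67 or Top2a UMI, and the median of 0.21 became -0.0051 under the strict gates and 0.0046 without likely doublets. Without likely doublets, the Siglech count of 4 became 1, its median of -1.21 became 0.25, and Tnfrsf4 and Tnfrsf18 turned from -1.34 and -0.77 to 0.69 and 0.25. The count of 3 genes higher in regulatory than in conventional CD4 cells became 5 with mean per-cell CPM, under the strict gates, without likely doublets and without cells with a Mki67 or Top2a UMI. The counts of 4 over CD8 cells stayed within 1.5 times. Of 30 gene and class pairs in T cells, 17 kept 1 direction in all 14 settings. Thinned shares and CPM moved the same way in 25 of the 30, in 24 with another seed, and in 22 of 30 after thinning to 1000 UMIs. Without thinning, shares and CPM did so in 20 of 30. No paired analysis was possible because each genotype has 1 library, and the only shared replicate number is 1.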
